A study of Rattus norvegicus with 8 samples.

Results

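The genes described here are 10 genes that Müller glia, the main glial cells of the retina, use in their supporting work: Glul, Slc1a3, Kcnj10, Aqp4, Rlbp1, Car2, Clu, Apoe, Dkk3 and Sox9. They were chosen by name, as all probes on the array whose gene name is one of these symbols, and the array holds 14 such probes among 26334 gene names. Of the 10 genes, 9 passed the filter on dim and defective spots, which 16307 genes passed in all. RNA was measured in whole retinas of female Lister Hooded rats that were 8 weeks old. In the ONC group (optic nerve crush), the right optic nerve had been squeezed with forceps at a distance of 3 mm behind the disc, for 10 s, and in the CTR group (sham) the same surgery was done without closing them. Retinas were taken 2 weeks later, 4 per group, each labeled with Cy5 (red) or Cy3 (green) and hybridized as 1 channel of a 2-color Agilent array, on 4 arrays of 1 slide. The question is how the expression of these genes and its variation among retinas differ between the labels ONC and CTR.

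Müller glia span the retina from its inner to its outer border and touch every type of retinal neuron. They take up glutamate released at synapses and turn it into glutamine, carry potassium and water away from active neurons, return retinoid to cones, buffer pH and secrete lipid-carrying proteins. Injury to retinal neurons or their axons is known to make these cells reactive, a state marked by the intermediate filament Gfap, in which some of the supporting genes can be turned down. Several of the 10 genes are not restricted to Müller glia in the retina, since astrocytes of the nerve fiber layer also use Glul, Slc1a3, Aqp4, Kcnj10, Clu, Apoe and Sox9.

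The labels put CTR and ONC retinas of equal number together on an array, all CTR in Cy5 and all ONC in Cy3, which means that dye and condition cannot be told apart. According to the methods, however, retinas shared an array with others of their own group. Labels are used throughout, and "CTR" and "ONC" mean the channels so labeled. Markers of retinal ganglion cells (RGCs), the neurons whose axons form the optic nerve, do not follow the labels. Pou4f2, an RGC transcription factor, had log2 levels (normalized intensity, 0 being the median of the channel) of -4.04, -0.52, -3.95 and -3.02 in CTR1–CTR4 and -0.03, -0.04, -0.05 and -3.14 in ONC1–ONC4. Nefm, the medium neurofilament of RGC axons, had levels of -0.21, 2.84, 0.12 and -0.13 in CTR1–CTR4 and 2.90, 2.99, 2.97 and -0.35 in ONC1–ONC4. Both markers were high in ONC1, ONC2, ONC3 and CTR2 and low in CTR1, CTR3, CTR4 and ONC4. The log2 fold change of ONC over CTR was 2.07 for Pou4f2 (SE 0.92, adjusted p = 0.274) and 1.47 for Nefm (SE 0.90, adjusted p = 0.427). By labels, these markers thus run opposite to the direction that the study gives for them, in which only CTR2 and ONC4 match their label. Every direction below is one between labels. The log ratios of ONC over CTR correlated between arrays with r from 0.15 to 0.65 across 27371 spots, which are not independent replicates.

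No member passed the test between ONC and CTR at an adjusted p under 0.05 in limma over all genes (0 of 9, against 81 of 16307 genes or 0.497%). At an unadjusted p under 0.05, there were 2 members, Slc1a3 and Clu, against 3025 genes or 18.6%, and by the methods' t-test at its unadjusted threshold 0 members against 2690 genes or 16.5%. The methods also ask for a fold change above a cut-off set for each gene, which was not applied here. In none of the 9 members did the CTR and ONC channels lie apart without overlap, as they did for 2069 genes or 12.7%. With the retina number as a block, which by the labels is also the array, Slc1a3 and Clu passed the test (2 of 9, against 1254 genes or 7.69%), both lower in ONC. With each channel scaled to its median in place of loess, Clu and Dkk3 passed (2 of 9, against 3194 genes or 19.6%), both lower in ONC. The share of calls that were higher in ONC was 71.0% with that scaling and 46.9% with loess. The median log2 fold change of the 9 members was -0.19, against -0.01 over all genes. It was -0.33 with median scaling, -0.03 with the scanner software's processed signal and -0.12, -0.09 and -0.10 without CTR1, CTR4 and ONC2. By sign, 7 members were lower in ONC and 2 higher, where 52.6% of all genes were lower, but Rlbp1, among the 2, was at -0.04 with median scaling, and Car2 and Dkk3, of the 7, were at 0.002 and 0.0037 with the processed signal. In size, the median log2 fold change of the members was 0.23, against 0.14 over all genes. In whole retinas, fewer Müller cells and less RNA per cell cannot be told apart.

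**Figure D1:**
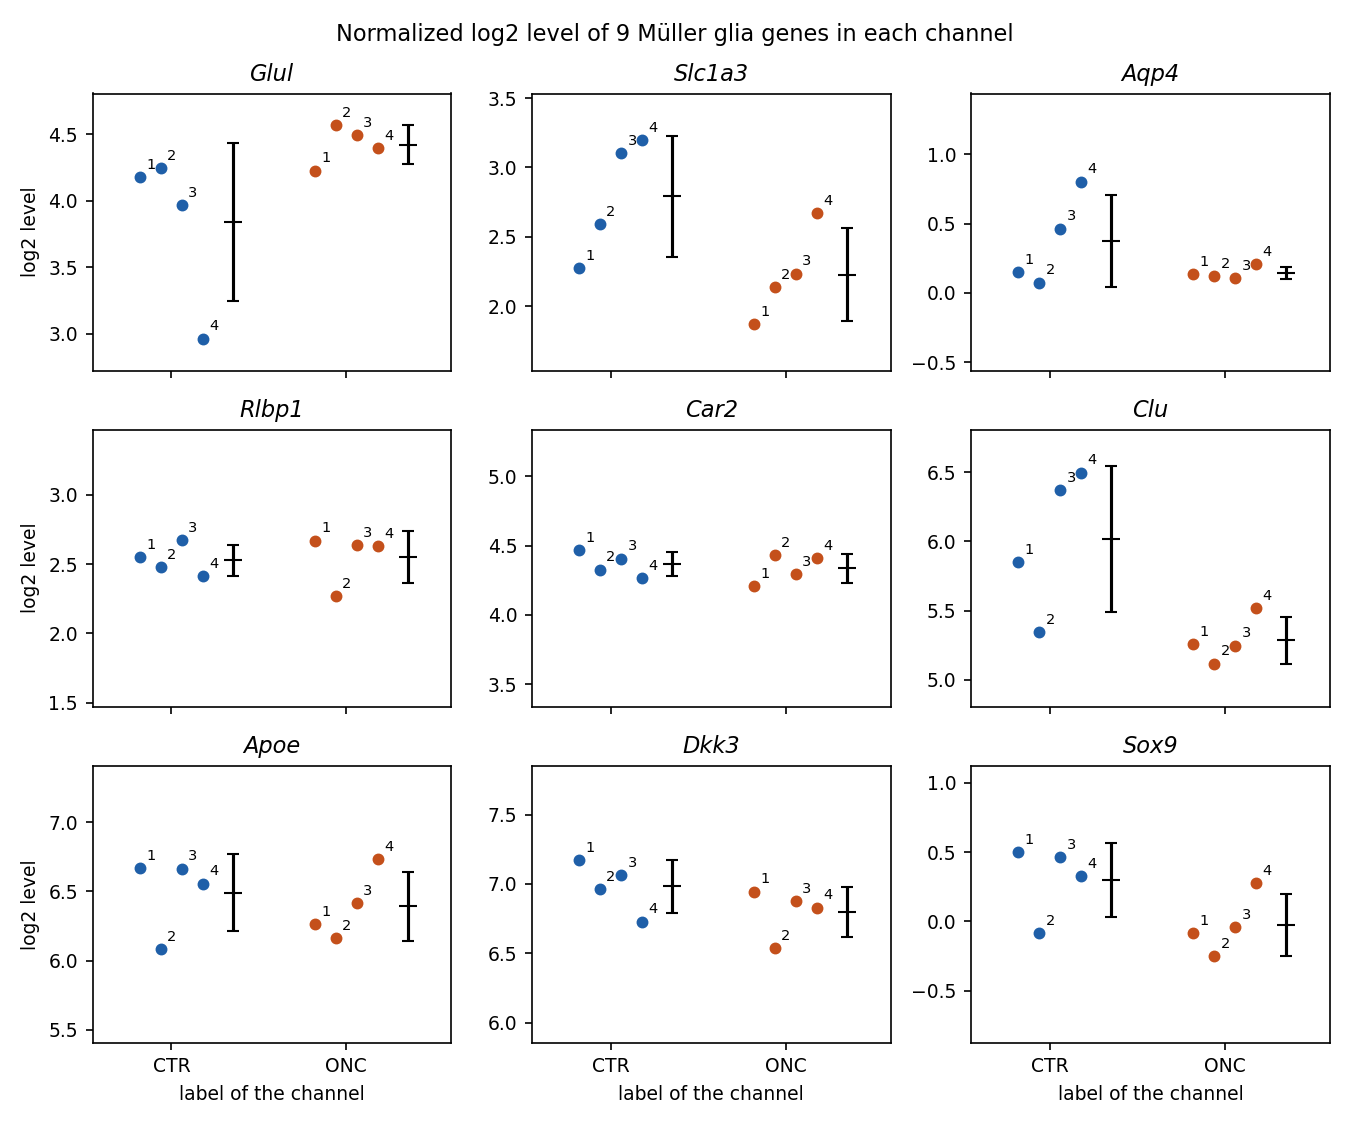
Normalized log2 level (vertical axis) of the 9 members in each channel, with points numbered by retina, CTR in blue and ONC in orange, and bars for the mean and SD of the 4 retinas of a label. The ranges of the labels overlap in all 9 panels, and CTR4 stands lowest in Glul while CTR3 and CTR4 stand highest in Slc1a3, Aqp4 and Clu.

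Glul encodes glutamine synthetase, the enzyme that joins ammonia to glutamate and that neurons of the retina lack. Its log2 level on its only probe (A_44_P381069) was 4.18, 4.25, 3.97 and 2.97 in CTR1–CTR4 and 4.23, 4.57, 4.50 and 4.40 in ONC1–ONC4. CTR4 was the lowest by far, and the labels overlapped only in that ONC1 lay below CTR2. Glul was higher in the ONC channel on 4 of 4 arrays, by 0.05, 0.32, 0.53 and 1.43 on arrays 1 to 4. The log2 fold change was 0.58 (SE 0.26, 95% interval -0.0011 to 1.17, adjusted p = 0.271), or 1.5-fold, which was larger in size than in 97.6% of all genes and did not pass the test. Without CTR4 it was 0.29.

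Slc1a3 encodes GLAST, the main glutamate transporter of Müller glia. Its log2 level, the mean over 2 probes, was 2.27, 2.59, 3.104 and 3.20 in CTR1–CTR4 and 1.87, 2.14, 2.23 and 2.67 in ONC1–ONC4. CTR3 and CTR4 stood above all ONC channels, whereas CTR1 and CTR2 lay within the range of ONC. On each array the ONC channel was the lower one, by -0.40, -0.45, -0.87 and -0.53 on arrays 1 to 4 as ONC minus CTR, so the difference within arrays varied less than the levels did. Between labels, the log2 fold change was -0.56 (SE 0.23, 95% interval -1.09 to -0.04, adjusted p = 0.244). With the replicate block, the same difference had an SE of 0.09 and an adjusted p of 0.0336, the lowest in a range of 0.0336 to 0.477 over the alternatives run for Slc1a3. Its probes lie on rn4 chromosome 2, from 58272281 to 58272340 (A_64_P021516) and from 58270245 to 58270304 (A_64_P113725). The first gave a log2 fold change of -0.86 (SE 0.38) and the second -0.26 (SE 0.11). Both probes were lower in ONC, though the size of the difference depended on the probe. The first probe read -0.24, 0.47, 1.09 and 1.32 in CTR1–CTR4 and -0.86, -0.36, -0.14 and 0.54 in ONC1–ONC4. The second read 4.79, 4.71, 5.12 and 5.08 in CTR1–CTR4 and 4.59, 4.63, 4.61 and 4.80 in ONC1–ONC4. CTR3 and CTR4 were the highest channels on both probes.

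Of 14 other genes of glutamate, GABA and glutamine handling, 11 passed the spot filter and 0 passed limma's test (4 at an unadjusted p under 0.05), with 6 higher and 5 lower in ONC and a median log2 fold change of 0.03, which was -0.08 with median scaling. Got2, the mitochondrial aspartate aminotransferase, was at -0.44 and passed with the replicate block (adjusted p = 0.0748 without it and 0.0364 with it) and with median scaling (0.0148), but was at -0.26 with the processed signal. The largest difference was -0.68 (SE 0.28, adjusted p = 0.239) in the glutamine transporter Slc38a5. Counts in this list and those below are to be read against all genes. Of these, 18.6% had an unadjusted p under 0.05 in limma, 7.69% passed with the block and 19.6% with median scaling.

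Aqp4 encodes the water channel of Müller cell endfeet and processes. Its log2 level, the mean over 3 probes, was 0.15, 0.07, 0.46 and 0.80 in CTR1–CTR4 and 0.13, 0.12, 0.11 and 0.21 in ONC1–ONC4. In this mean CTR1 and CTR2 were at about the level of the ONC channels, with CTR3 and CTR4 above all 4 of them. Its log2 fold change was -0.23 (SE 0.15, adjusted p = 0.465), with the ONC channel higher on 1 of 4 arrays, and it was -0.09 without CTR4. Its probes lie on rn4 chromosome 18, at 6626431 to 6626490 (A_44_P561166), 6630285 to 6630344 (A_64_P018751) and 6629662 to 6629721 (A_64_P036063). They gave log2 fold changes of -0.38 (SE 0.16), -0.19 (SE 0.17) and -0.12 (SE 0.18), all lower in ONC, in that order. In each of them CTR4 was the highest channel. In the same order, their SD was 0.31, 0.39 and 0.38 among CTR and 0.16, 0.08 and 0.16 among ONC (n = 4 each). The ONC levels of the mean lie closer together than this, because ONC2 was the highest ONC channel on the first probe and the lowest on the other 2.

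Kcnj10 encodes Kir4.1, the inward rectifier potassium channel that sets the resting potential of Müller glia. Its only probe (A_64_P101968, rn4 chromosome 13, 88370332 to 88370391) was not well above background in any of the 8 channels, and it did not pass the filter. Foreground over background was 1.30, 1.38, 1.37 and 1.32 in CTR1–CTR4 and 2.84, 2.78, 2.45 and 2.68 in ONC1–ONC4. The median background was 55.0 to 56.5 in the Cy5 channels and 26.0 to 29.5 in the Cy3 channels, so these ratios cannot be set against each other between labels, and no fold change is given for Kcnj10.

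Among 15 other potassium channels, water channels and proteins that anchor them, 12 passed the filter, 4 higher and 8 lower in ONC, with a median of -0.11. Dag1, the dystroglycan that holds Aqp4 and Kir4.1 at endfeet, had a log2 fold change of -0.49 (SE 0.08, adjusted p = 0.0438, lower on 4 of 4 arrays) and was the only gene of the list called by limma. The call of Dag1 was lost in 8 of 8 fits without 1 retina (-0.53 to -0.46, adjusted p = 0.0607 to 0.178). In these fits limma called 0 genes in all, except 38 without ONC2. It was also lost with normexp background, either on the same spots (0.0584) or with no filter on dim spots (0.207). The same held with the processed signal (-0.30, adjusted p = 0.0801), with only CTR2, CTR4, ONC1 and ONC3 (0.384) and by the methods' t-test after adjustment (0.0517). With the replicate block, Dtna (dystrobrevin alpha, of the same complex) at -0.37 and the potassium channel Kcnk2 at 0.50 also passed (adjusted p = 0.0484 and 0.0304, against 0.114 and 0.0575 without it). Both passed with median scaling too (0.0323 and 0.0121) and Kcnk2 with Aquantile normalization between arrays (0.0347). With the processed signal, however, they were at -0.17 and 0.30, and Kcnk2 was at 0.18 with normexp background and no filter on dim spots. Mlc1, a membrane protein of glial endfeet, had the largest difference, -0.70 (SE 0.35, adjusted p = 0.331).

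Rlbp1 encodes CRALBP, the retinaldehyde-binding protein of Müller glia and pigment epithelium. Its log2 level (probe A_64_P043116, rn4 chromosome 1, 135122725 to 135122784) was 2.55, 2.48, 2.67 and 2.41 in CTR1–CTR4 and 2.67, 2.27, 2.63 and 2.63 in ONC1–ONC4. All 8 channels fell within a narrow range except ONC2, which was the lowest and stood apart from the other 3 ONC channels. The fitted log2 fold change was 0.02 (SE 0.11, 95% interval -0.23 to 0.28, adjusted p = 0.943), and its sign depended on the normalization and on single retinas. It was 0.12 without ONC2. ONC was higher on 2 of 4 arrays. Of 11 other genes of the retinoid cycle and of retinoid binding, 10 passed the filter and 0 passed limma's test (2 at an unadjusted p under 0.05), with 6 higher and 4 lower and a median of 0.09, which was 0.03 with median scaling. The largest difference, 0.79 (SE 0.34, adjusted p = 0.256), was in Rpe65, the isomerase of the pigment epithelium.

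Car2 encodes carbonic anhydrase 2, a cytosolic enzyme that links carbon dioxide to bicarbonate. Its probe (A_42_P545943, rn4 chromosome 2, 88077739 to 88077798) is printed 10 times on each array, and 6 of these spots passed the filter. The log2 level over these spots was 4.47, 4.33, 4.41 and 4.26 in CTR1–CTR4 and 4.21, 4.43, 4.30 and 4.41 in ONC1–ONC4. The labels overlapped throughout, and no channel stood apart. The log2 fold change was -0.03 (SE 0.09, 95% interval -0.23 to 0.17, adjusted p = 0.903), with ONC higher on 2 of 4 arrays, and it was -0.18 with median scaling and 0.0049 and 0.014 without CTR1 and ONC1. The interval was the narrowest among the 9 members. Within a channel the SD over the 6 single spots was between 0.03 and 0.19. Among retinas, the SD of the means over these 6 spots was 0.09 in CTR and 0.10 in ONC. An SD of single spots and an SD of means over spots are unlike measures. Of 11 other genes of bicarbonate and lactate transport, 11 passed the filter and 0 passed limma's test (3 at an unadjusted p under 0.05), 5 higher and 6 lower, with a median of -0.01, which was -0.05 with median scaling. Car3, another cytosolic carbonic anhydrase, had the largest difference, -0.77 (SE 0.25, adjusted p = 0.149), and passed with the replicate block (adjusted p = 0.0339). It was at -0.24 with median scaling and -1.35 with the processed signal and did not pass in either.

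Clu encodes clusterin, a secreted chaperone and lipid carrier also known as apolipoprotein J. Its probe (A_42_P538928, rn4 chromosome 15, 45404688 to 45404747) is printed 10 times on each array, and 8 of these spots passed the filter. The log2 level was 5.85, 5.34, 6.37 and 6.50 in CTR1–CTR4 and 5.26, 5.12, 5.25 and 5.52 in ONC1–ONC4. CTR1, CTR3 and CTR4 stood above all ONC channels, and the labels overlapped only through CTR2, which lay below ONC4. The SD over the 8 single spots within a channel was 0.14 to 0.25. Among retinas, the SD of the means over these 8 spots, an unlike measure, was 0.53 in CTR and 0.17 in ONC. On arrays 1 to 4, ONC minus CTR was -0.59, -0.23, -1.12 and -0.98, lower in ONC on each of them. Between labels, the log2 fold change was -0.73 (SE 0.24, 95% interval -1.26 to -0.20, adjusted p = 0.150), or 1.66-fold higher in CTR, the largest difference among the members and larger in size than in 99.1% of all genes. Clu did not pass the test in this fit, but it did with the replicate block (-0.73, SE 0.15, adjusted p = 0.0449) and with median scaling (-1.02, adjusted p = 0.0229). By labels, Clu too runs opposite to the direction that the study gives for it. Over all alternatives run, its adjusted p ranged from 0.0229 to 0.535.

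Apoe encodes apolipoprotein E, the main lipid carrier that retinal glia secrete. Its log2 level (probe A_44_P171440, rn4 chromosome 1, 79003795 to 79003854) was 6.67, 6.08, 6.66 and 6.56 in CTR1–CTR4 and 6.26, 6.16, 6.41 and 6.73 in ONC1–ONC4. ONC4 was the highest channel and CTR2 the lowest, which are also the channels whose RGC markers differ from the rest of their label. Its log2 fold change was -0.10 (SE 0.17, adjusted p = 0.811), with ONC higher on 2 of 4 arrays. It was -0.48 with median scaling, and did not pass the test there, and -0.03 with the processed signal. Without CTR2 it was -0.24 and without ONC4 -0.21, but -0.04 without CTR1 or CTR3, -0.06 without ONC1 and -0.02 without ONC2.

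Of 10 receptors of apolipoproteins and clusterin and genes of lipid efflux, 8 passed the filter and 0 passed limma's test (1 at an unadjusted p under 0.05), 2 higher and 6 lower, with a median of -0.09, which was 0.01 with median scaling. The cholesterol exporter Abca1 had the largest difference, -0.31 (SE 0.25, adjusted p = 0.562).

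Dkk3 encodes a secreted member of the Dickkopf family, whose other members act on Wnt receptors. Its log2 level (probe A_64_P084198, rn4 chromosome 1, 169924663 to 169924722) was 7.17, 6.96, 7.07 and 6.73 in CTR1–CTR4 and 6.94, 6.54, 6.87 and 6.83 in ONC1–ONC4. CTR1 was the highest and ONC2 the lowest, and CTR4 lay below 3 of the ONC channels. The fitted log2 fold change was -0.19 (SE 0.13, adjusted p = 0.477), lower in ONC on all arrays but array 4, and 0.0037 with the processed signal. It was -0.12 without CTR1 and -0.10 without ONC2. With median scaling Dkk3 passed the test (-0.62, adjusted p = 0.0147, in a range of 0.0147 to 0.990 over the alternatives). Of 11 Dickkopf family genes and Wnt co-receptors, 7 passed the filter and 0 passed limma's test (0 at an unadjusted p under 0.05), 3 higher and 4 lower, with a median of -0.09, which was 0.17 with median scaling. The largest difference was -0.20 (SE 0.21, adjusted p = 0.671), in the Dickkopf receptor Kremen1.

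Sox9 encodes a transcription factor of retinal progenitors that Müller glia keep in the adult retina. Of its 2 probes, A_64_P033293 (rn4 chromosome 10, 102387042 to 102387101) was too dim for the filter, being well above background in 2 of 8 channels only. The other (A_64_P033298, 102388891 to 102388950 of the same chromosome) gave a log2 level of 0.50, -0.09, 0.46 and 0.33 in CTR1–CTR4 and -0.08, -0.25, -0.04 and 0.28 in ONC1–ONC4. CTR1, CTR3 and CTR4 stood above all ONC channels, and CTR2 lay among the ONC channels, as in Clu. ONC was the lower channel on each array, by -0.58, -0.17, -0.51 and -0.05 on arrays 1 to 4 as ONC minus CTR. The log2 fold change was -0.33 (SE 0.16, 95% interval -0.68 to 0.03, adjusted p = 0.309). It was -0.14 (adjusted p = 0.9998) with normexp background and no filter on dim spots, where both probes enter. With only CTR2, CTR4, ONC1 and ONC3 it was -0.18.

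Of 16 other transcription factors of glia and progenitors, 15 passed the filter and 0 passed limma's test (5 at an unadjusted p under 0.05), 7 higher and 8 lower, with a median of -0.16, which was 0.11 with median scaling. With the replicate block, 3 genes of this list passed: Hes1, a repressor downstream of Notch, at 0.69 (adjusted p = 0.0720 without it and 0.0330 with it), Rax, an eye field homeobox factor, at -0.48 (0.256 and 0.0486) and the helix-loop-helix inhibitor Id3 at -0.37 (0.585 and 0.0444). Hes1, which had the largest difference of the list, also passed with median scaling (0.0161) and with Aquantile (0.0446). Rax was at -0.29 without ONC2. Id3 was at -0.12 with median scaling and at -0.66, -0.23 and -0.14 without CTR1, CTR2 and ONC1.

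**Figure D2:**
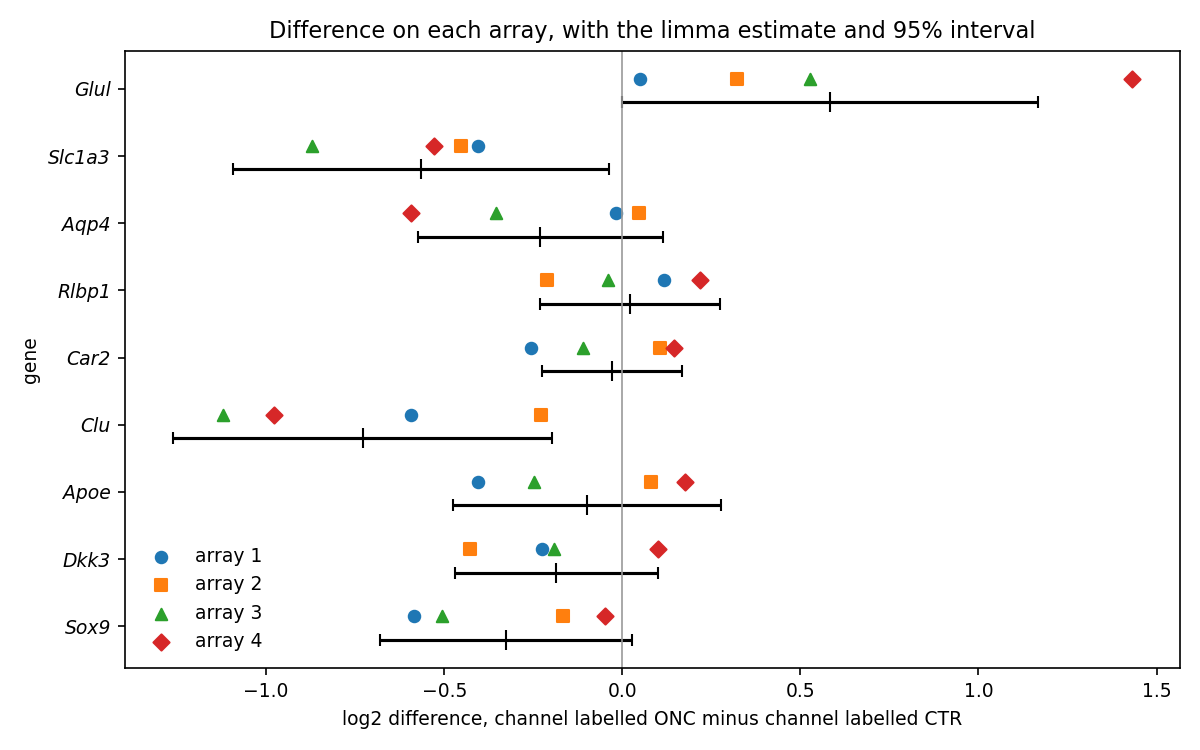
Log2 difference of the ONC channel minus the CTR channel on each array (symbols) for the 9 members, with the limma estimate and its 95% interval (black line) under them. All 4 arrays lie below 0 in Slc1a3, Clu and Sox9 and above 0 in Glul, and the arrays lie on both sides of 0 in the other 5 members.

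The plot of differences by array shows that the members did not share 1 pattern. Clu, Slc1a3 and Sox9 were lower in ONC on 4 of 4 arrays, Glul was higher on 4 of 4, and the other 5 members were mixed. With each gene centered on its mean over the 8 channels, the mean profile of the 9 members was 0.10, -0.10, 0.25 and 0.09 in CTR1–CTR4 and -0.16, -0.20, -0.07 and 0.09 in ONC1–ONC4. CTR3 was the highest channel, with 8 of 9 members above their own mean, and ONC2 and ONC3 had the fewest, 2 of 9 each. ONC4 was at about the level of CTR1 and CTR4, with 6 of 9 members above their mean, and CTR2 was below 0, with 3 of 9.

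Likeness between 2 centered profiles was measured as their root mean square difference over the 8 channels, on the log2 scale. Apoe and Sox9 were each other's nearest member at 0.12, Rlbp1 and Dkk3 at 0.13, and Slc1a3 and Clu at 0.27. Slc1a3 and Clu share the high values in CTR3 and CTR4, and Apoe and Sox9 share the low value in CTR2. The nearest member was Rlbp1 for Car2 (0.17), Sox9 for Aqp4 (0.24) and Car2 for Glul (0.45). Glul was the farthest member from 6 of the others, at 0.93 from Clu, and the only one with its lowest value in CTR4. Outside the members, the 5 genes nearest to their mean profile were Aup1 and Eapp at 0.04 and LOC100360087, Rpap3 and the transcript XM_215850 at 0.05.

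The probes do not show from which cells the RNA came, so other markers of Müller glia and of the remaining retinal cells were read in the same channels. Of 16 other Müller glia markers, 15 passed the filter and 0 passed limma's test (6 at an unadjusted p under 0.05), 7 higher and 8 lower in ONC, with a median of -0.08, which was -0.01 with median scaling. With the replicate block, 4 of these markers passed: Crym, a thyroid hormone-binding protein with the largest difference of the list, at -1.04 (adjusted p = 0.118 without the block and 0.0285 with it), Vim, the intermediate filament vimentin, at -0.41 (0.0799 and 0.0409), Dbi, which binds acyl-CoA, at 0.40 (0.182 and 0.0364), and Hes1, given above. Crym and Vim were among the 19.6% of all genes that passed with median scaling (adjusted p = 0.0151 and 0.0169), where Dbi was at 0.19. Over all genes, 7.69% passed with the block and 18.6% had an unadjusted p under 0.05 in limma.

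Genes of reactive gliosis had a median log2 fold change of -0.38 (1 higher and 13 lower in ONC, of 14 that passed the filter out of 16, and 0 called, with 3 at an unadjusted p under 0.05). Their median centered level was -0.07, -0.22, 0.43 and 0.81 in CTR1–CTR4 and -0.16, -0.37, -0.14 and 0.09 in ONC1–ONC4. CTR3 and CTR4 were high here, as in Slc1a3, Aqp4 and Clu. The study reports some genes of this list as upregulated after ONC, opposite to the sign of the list median between labels. Lcn2, a lipocalin of reactive glia, had the largest difference at -1.27 (SE 0.93, adjusted p = 0.518), and Vim and the protease inhibitor A2m, the latter at -0.83 (adjusted p = 0.0886 without the block and 0.0336 with it), passed with the replicate block and with median scaling (adjusted p = 0.0126 for A2m). Markers of microglia and macrophages showed 0.06, -0.40, 0.55 and 0.53 in CTR1–CTR4 and -0.30, -0.04, -0.31 and -0.03 in ONC1–ONC4, again highest in CTR3 and CTR4. Of these 11 genes, all of which passed the filter, 1 was higher and 10 were lower in ONC and 0 were called (3 at an unadjusted p under 0.05), with a median of -0.30 and the largest difference in the complement gene C1qb (-0.69, SE 0.48, adjusted p = 0.486). What these cells contribute to the values of Clu, Apoe and the other members was not tested.

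**Figure D3:**
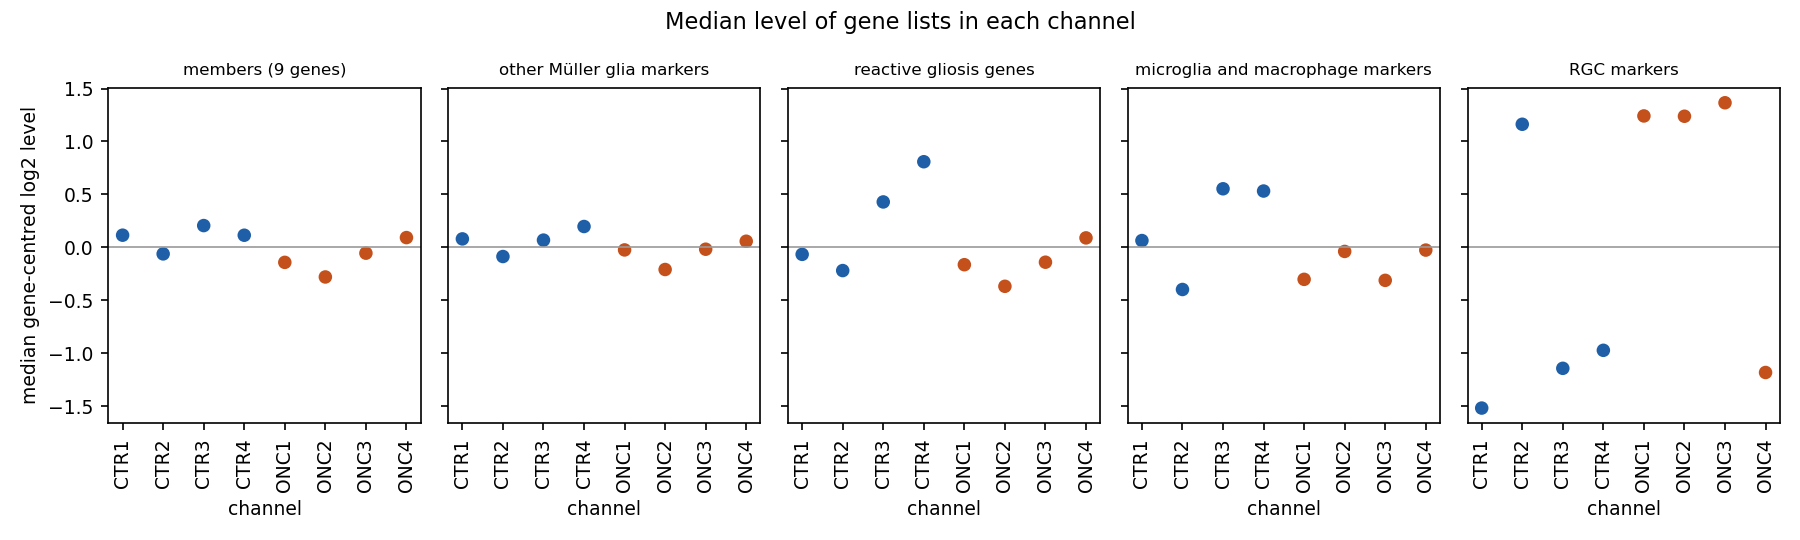
Median gene-centered log2 level (vertical axis) of the 9 members, other Müller glia markers, reactive gliosis genes, microglia and macrophage markers and RGC markers in each channel, CTR in blue and ONC in orange. The members stay between -0.28 and 0.21 and the other Müller glia markers between -0.21 and 0.20, gliosis and microglia genes are highest in CTR3 and CTR4, and RGC markers are low in CTR1, CTR3, CTR4 and ONC4.

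The RGC markers had medians of -1.52, 1.16, -1.14 and -0.97 in CTR1–CTR4 and 1.24, 1.24, 1.37 and -1.18 in ONC1–ONC4, with 10 of 10 measured genes higher in ONC (14 listed), a median log2 fold change of 1.29 and Pou4f2 the largest. In 4 members, Aqp4, Clu, Apoe and Sox9, CTR2 was the lowest CTR channel and ONC4 the highest ONC channel, the opposite of these markers. For Aqp4 this held on 2 of its 3 probes, while on the brightest, A_44_P561166, CTR1 was the lowest CTR channel and ONC2 the highest ONC channel. In Slc1a3 this held for ONC4 only, and in Glul CTR2 was the highest CTR channel. Rlbp1, Car2 and Dkk3 did not show it either. Their lowest CTR channel was CTR4, and their highest ONC channel was ONC1, ONC2 and ONC1. What RGCs contribute to the values of the members was not tested. Astrocyte markers had 2 higher and 5 lower of 7 measured (8 listed), a median of -0.16 (-0.08 with median scaling) and the largest difference in Gfap, which was at -1.15 (SE 0.54, adjusted p = 0.296) with levels of -1.84, -1.71, -0.20 and 0.17 in CTR1–CTR4 and -1.67, -3.26, -1.57 and -1.69 in ONC1–ONC4. Gfap, which Müller glia also make when reactive, was thus highest in CTR3 and CTR4, the channels in which Slc1a3 and Clu were highest as well.

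Among the other cell types, the only gene called by limma was Isl1, a homeobox factor listed for bipolar cells and also known from RGCs and amacrine cells, with a log2 fold change of 0.64 (SE 0.08, adjusted p = 0.0418, higher on 4 of 4 arrays). The call of Isl1 was lost in 7 of 8 fits without 1 retina (0.60 to 0.68 over the 8, with an adjusted p up to 0.178, and 0.0475 without ONC2). In those 7 fits limma called 0 genes in all. It was also lost with normexp background, either on the same spots (0.0557) or with no filter on dim spots (0.110). The same held with only CTR2, CTR4, ONC1 and ONC3 (0.384) and by the methods' t-test after adjustment (0.101). In each of these settings, too, 0 genes were called, so the losses say nothing particular about Isl1. Of 9 bipolar cell markers measured, 1 was called and 4 had an unadjusted p under 0.05. The median log2 fold change was 0.23 and all 9 had a positive sign, but ONC2, at a median level of -0.11, lay within the range of CTR (-0.17 to -0.05). Rod markers had 4 higher and 4 lower of 8 measured (9 listed, median -0.11), and cone markers 1 higher and 6 lower of 7 (median -0.36), with Pde6h the largest at -0.39. The cone genes Opn1mw (-0.37), Pde6h and Cngb3 (-0.37) passed with the replicate block (adjusted p = 0.0668, 0.184 and 0.111 without it and 0.0358, 0.0327 and 0.0486 with it). With median scaling Opn1mw and Pde6h passed too (0.0149 and 0.0260) and Cngb3 was at -0.15, while Opn1mw passed with Aquantile (0.0413) and was at -0.22 with the processed signal. Amacrine cell markers had 4 higher and 5 lower of 9 (10 listed), with a median of -0.015, which was 0.10 with median scaling, the largest difference in Tfap2a (0.58) and a call with the block in the glycine transporter Slc6a9 (-0.41, adjusted p = 0.121 without it, 0.0334 with it and 0.0474 with median scaling, but -0.18 on its brightest probe). Horizontal cell markers had 2 higher and 4 lower of 6 (median -0.05, largest Onecut2, 0.17), and endothelium and pericyte markers 4 higher and 3 lower of 7 (8 listed, median 0.09, largest Rgs5, -0.19). Pigment epithelium markers had 4 higher and 1 lower of 5 (8 listed, median 0.19, largest Rpe65), oligodendrocyte markers 4 higher of 4 (7 listed, median 0.06, largest Mag, 0.47), and red blood cell markers 4 higher of 4 (7 listed, median 0.15, largest Hba1, 0.38). With median scaling, the median was -0.45 for rod, -0.01 for horizontal cell, 0.02 for endothelium and pericyte, 0.47 for pigment epithelium, 0.59 for oligodendrocyte and 0.26 for red blood cell markers. Lens genes, listed for the tissue next to the retina, had 2 higher and 10 lower of 12 (median -0.40, largest Cryaa, -0.95). Their median level was highest in CTR2 at 1.23, and from which cells their RNA came was not tested.

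Besides the level, the study reads how much a gene varies among the retinas of a group. REV is an estimate of the coefficient of variation over the 4 retinas, taken from its chi-squared interval, and GES is the percentage of genes that vary more, so that a high GES marks a gene held steady. REV multiplies the coefficient of variation (CV) by a factor that falls with the numbers of spots and retinas, from 2.15 for 1 spot to 1.07 for 8 spots with 4 retinas, and from 3.40 to 1.09 with 3 retinas. GES ranks genes by REV and shares this dependence. For this reason the CV is given too where genes with unequal numbers of spots are compared, and alone where a retina is left out. The median REV of the 9 members was 36.9% in CTR and 25.5% in ONC, against 25.1% and 21.7% over all genes, with 7 of 9 members above the median of all genes in CTR and 5 of 9 in ONC. The median CV of the members was 17.6% in CTR and 12.3% in ONC, against 13.1% and 11.5% over all genes. In each label, 6 of 9 members lay above the median of all genes. With normexp background and no filter on dim spots, the count in ONC was 2 of 9. REV was higher in CTR than in ONC in 6 of 9 members, against 58.5% of all genes. By labels, variation over all genes thus runs opposite to the study, which reports a slight shift to higher REV after ONC.

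Glul had a REV of 72.1% in CTR (GES 3.31), the highest of the members, and 21.4% in ONC (GES 50.7). Its CV was 33.6% in CTR, where that of Clu was higher, and 9.98% in ONC. The CTR value rests on CTR4, without which the CV was 9.76%, and in ONC it was 5.93% without ONC1. Clu had a REV of 37.6% in CTR (GES 24.2) and 16.0% in ONC (GES 66.8), with a CV of 35.3% and 15.02%, and Aqp4 a REV of 31.1% (GES 35.8) and 11.7% (GES 81.4), with a CV of 25.8% and 9.75%. In these 3 genes the ONC channels lay closer together than the CTR channels, and the difference in variation was not tested. In ONC, the CV of Clu was 5.97% without ONC4 and that of Aqp4 5.01% without ONC2. Slc1a3 was above the median of all genes in either label, with a REV of 43.4% in CTR and 39.9% in ONC and a CV of 32.2% and 29.6%, the latter 17.0% without ONC4. Apoe and Sox9 were above it too, with a REV of 37.8% and 36.9% in CTR and 38.7% and 34.0% in ONC. The CV of Apoe was 17.6% in CTR and 18.03% in ONC, but 4.30% without CTR2 and 8.87% without ONC4. That of Sox9 was 17.2% and 15.9%, but 6.27% and 7.503% without the same 2 channels.

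Dkk3 was near the middle of all genes, with a REV of 27.4% in CTR (GES 44.1) and 25.5% in ONC (GES 41.0). Its CV of 12.7% in CTR was 7.25% without CTR4 and 5.73% with the processed signal, and that of 11.9% in ONC was 4.05% without ONC2. Rlbp1 varied less in CTR than in ONC in the main fit, with a REV of 17.0% against 26.4%. Its CV was 7.89% in CTR, or 4.80% without CTR3, and 12.3% in ONC, or 1.45% without ONC2. The direction turned without ONC2 and also with normexp background and no filter on dim spots (CV 11.4% in CTR and 9.08% in ONC). Car2 had the lowest REV of the members in either label, 9.0% in CTR (GES 95.2) and 9.79% in ONC (GES 87.4), but it has 6 spots. By CV (8.26% and 8.99%) it was not the lowest in CTR, where Rlbp1 was below it. Car2 did have the lowest CV in CTR with median scaling and without CTR1 or CTR4. In the other settings the lowest was Dkk3 (processed signal), Apoe (without CTR2) or Rlbp1 (the rest). In ONC the CV of Car2 was the lowest in the main fit, but another member was lower without ONC1 (Glul), without ONC2 (Rlbp1) and without ONC4 (Clu). Rlbp1 was also the lowest with normexp background and no filter on dim spots. With normexp background and no filter on dim spots, the CV in ONC was 15.1% for Glul, 9.66% for Clu, 11.5% for Apoe and 10.1% for Sox9.

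**Figure D4:**
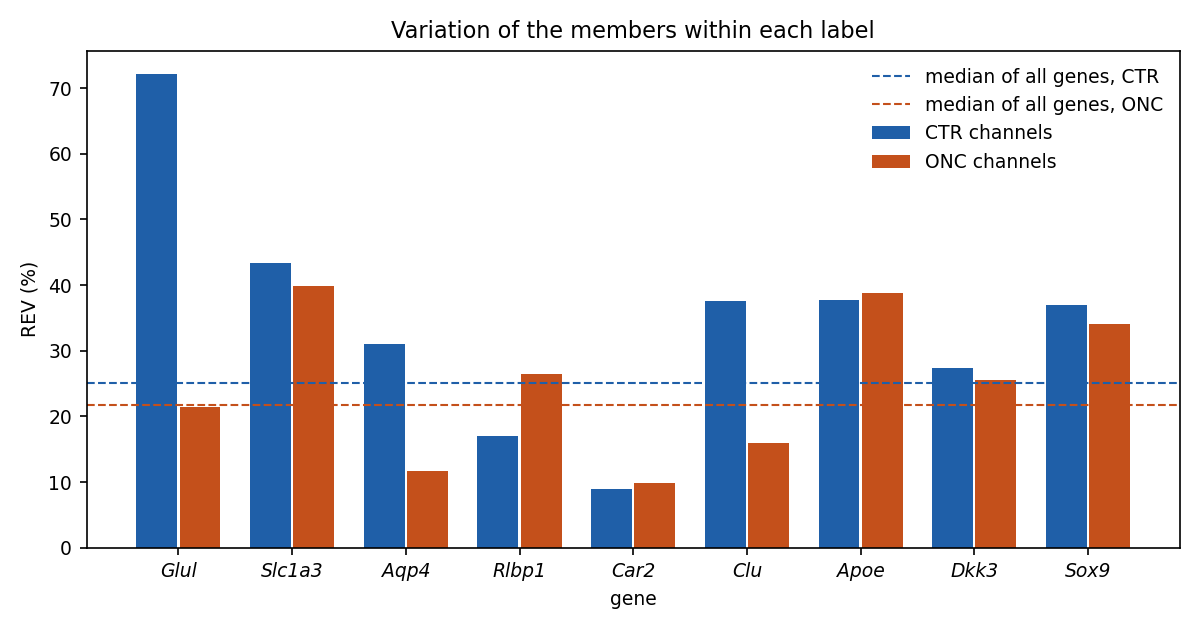
REV in percent (vertical axis, from 0) of the 9 members among the 4 CTR retinas (blue bars) and the 4 ONC retinas (orange bars), with dashed lines at the median of all genes in each label. Glul in CTR is the tallest bar at 72.1%, and Car2 is the shortest pair at 9.0% and 9.79%.

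The direction of Glul (higher in ONC) and of Slc1a3, Clu, Aqp4 and Sox9 (lower in ONC) was the same in 18 of 18 alternative settings that change the estimate. It turned in 6 of 18 settings for Rlbp1, 3 for Car2, 2 for Dkk3 and 1 for Apoe, the members with the smallest differences. The median log2 fold change of the members was below 0 in 18 of 18, between -0.35 and -0.03. These settings share most of their channels, so that they are no independent repeats, and 1 of them leaves out CTR2 and ONC4, a choice made by RGC markers and thus by an outcome, so that its values support nothing.

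**Figure D5:**
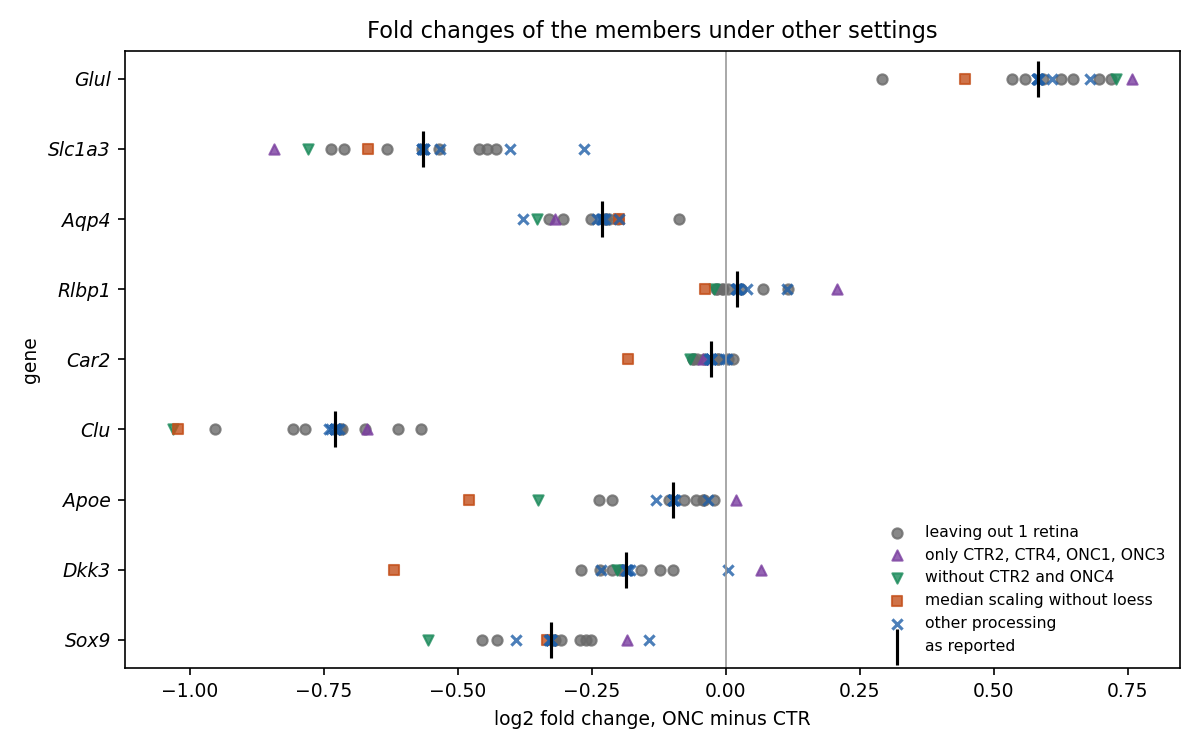
Log2 fold change of ONC over CTR (horizontal axis) for each of the 9 members as reported (black line) and under the alternative settings (symbols as in the key). Glul stays above 0 and Slc1a3, Aqp4, Clu and Sox9 stay below 0 in all of them, while Rlbp1, Car2, Apoe and Dkk3 have values on both sides.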

How the data were processed

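RNA of 4 CTR and 4 ONC retinas was measured on 4 two-color Agilent rat arrays. The authors deposited one scanner file per array, whose unit is intensity: mean foreground and median local background per spot and channel, and a processed signal that, per the file headers, had been background-subtracted and dye-normalized with a LOWESS smoothing of 0.25. The scanner software is Feature Extraction 12.0.3.1 in the headers and 11.1.19.1 in the submitters' processing notes. Groups were taken from the labels, which by dye and array differ from the methods.

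Of 44254 spots, 42877 are not controls. Spots with any of 3 outlier flags (non-uniform spot, replicate-spot outlier, non-uniform background) in any channel, which left 39677, or less than 2 times as bright as their background in at least 1 of 8 channels, were dropped. This kept 27371 spots, 18599 probes and 16307 genes, and 24 of the 32 spots per array, 12 of the 14 probes and 9 of the 10 members. The methods do not name the flags. These 3 were settled on because they give the spot, probe and gene counts of an earlier description of these files, after a run with the first 2 had been seen, which is kept as an alternative chosen after seeing the data. The channel median of the foreground was 446.6 to 626.0 for CTR and 218.1 to 494.7 for ONC, and the number of arrays limits the precision. The uncorrected log2 ratio of Cy5 to Cy3 had a median of 0.50, 0.32, 0.42 and 1.22 on arrays 1 to 4.

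Background was subtracted, each array normalized by loess and each channel centered on its median. Log2 values were averaged over the spots of each probe and then over the probes of each gene. The moderated two-sided test of limma 3.58.1 (R 4.3.3) compared ONC with CTR, unpaired like the test in the methods, and p-values were adjusted by Benjamini-Hochberg across all genes. A gene was called when its adjusted p was below 0.05. REV and GES followed the methods' equations. Counts and figures used Python 3.11.15, pandas 2.3.3, numpy 2.4.6 and matplotlib 3.10.9. The fits were tested on simulated data.

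The labels number the retinas 1 to 4 in each group. Deviations from the group mean correlated over genes with r = 0.15, 0.55, 0.40 and 0.49 for the same number and -0.51 to 0.17 for different numbers. Every same-number value is over 0.1, so the numbers were taken to pair the channels, which by the labels share an array, and the fit with the block is given where it changes a call. CTR1 and ONC2, of different numbers, were also over 0.1, at 0.17 against 0.15 for CTR1 and ONC1. Channels of 1 array also share its spots and loess fit, so these values cannot show that the retinas were paired.

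The members and all lists were chosen with earlier results of these data known. Named are all members and their probes, the genes of 8 related and 14 marker lists (88 of 104 and 114 of 132 listed genes passed the filter) that were called with or without the block, the largest difference of each list, Pou4f2 and Nefm, and the genes and members nearest in profile, except 1 gene that is not reported here. A gene on 2 lists counts in each. Gene names and rn4 probe positions are those of the array files. Alternatives were the block, 2 other normalizations, the processed signal, normexp with an offset of 50, other filters on dim spots and 1 probe per gene. Others were the methods' t-test (unequal variances) without their fold change cut-off, and leaving out channels. The setting with no filter on dim spots also used normexp, so both choices changed at once.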

Additional observations from a re-analysis of the deposited data

Results flagged for a closer look

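A value was singled out where the highest or lowest of the 4 channels of a label stood so far from its nearest neighbor that the gap, divided by the range of the 4, was above Dixon's 95% critical value. Chance gives about 1 in 20 such groups. Among the members, 1 of 18 groups met this: Rlbp1 in ONC, where ONC2 was the lowest channel with a gap of 0.906 of the range. Among the medians of the lists and the genes of the label check, 5 of 50 groups did. In ONC, ONC4 stood apart from the other 3 channels in Pou4f2 (0.993), in Nefm (0.973) and in the median of the RGC markers (0.950), low in each, and in the median of the apolipoprotein and clusterin receptors and lipid efflux genes (0.842), where it was high. In CTR, CTR2 stood apart as the high channel in Nefm (0.893). These groups are not independent, since Pou4f2 and Nefm are RGC markers themselves.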

How the results depend on the processing

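Members called were 0 in 18 of 21 alternatives and 2 in the other 3. With the replicate block, 1254 genes were called in place of 81, with 2 members, Slc1a3 (-0.56, adjusted p = 0.0336) and Clu (-0.73, 0.0449), and no call of another member changed. With median scaling without loess, 3194 genes were called, with 2 members, Clu (-1.02, 0.0229) and Dkk3 (-0.62, 0.0147), and Rlbp1 was at -0.038. Without CTR2 and ONC4 together, 415 genes were called, with 2 members, Clu (-1.03, 0.0380) and Sox9 (-0.56, 0.0454), and Rlbp1 was at -0.023. These 2 channels were chosen by their RGC markers, which is an outcome, and what remains sets CTR channels low in these markers against ONC channels high in them, so the calls of this setting support nothing. The range of the adjusted p over alternatives was 0.0336 to 0.477 for Slc1a3, 0.0229 to 0.535 for Clu, 0.0147 to 0.990 for Dkk3 and 0.0454 to 0.9998 for Sox9. With the processed signal, 21 genes were called, Car2 was at 0.002 and Dkk3 at 0.0037. With only CTR2, CTR4, ONC1 and ONC3, the retinas with the same dye in the labels and in the methods, limma called 0 genes (1961 at an unadjusted p under 0.05), Apoe was at 0.020 and Dkk3 at 0.065. Genes called numbered 408 with Aquantile, 123 with spots well above background in all channels and 124 with the brightest probe per gene. Calls were 0 with normexp on the same spots (2768 unadjusted) and 0 with normexp and no filter on dim spots (2338 unadjusted). The latter setting changes the background method and the filter at once. The methods' t-test, without the fold change cut-off that the methods add to it, called 2690 genes unadjusted and 0 after Benjamini-Hochberg adjustment. Leaving out 1 retina at a time, limma called 0 to 38 genes, 38 without ONC2 and 0 without each of the others (2085 to 3252 unadjusted), with fewer retinas by construction. Over the same fits Rlbp1 ranged from -0.018 to 0.12, Car2 from -0.062 to 0.014, and the median REV in ONC from 16.0% (without ONC2) to 48.2% (without ONC3). This REV range is no measure of how much single retinas matter, because the factor in REV is 2.15 for 1 spot with 4 retinas and 3.40 with 3. Without the factor, the median CV of the members was 9.23% to 14.7% in ONC over these fits (12.3% with 4 retinas) and 15.4% to 20.3% in CTR (17.6%). With the flags on the spot itself alone, chosen after seeing the data, 80 of 16422 genes and 0 members were called (2 unadjusted). Where a call or a sign differs, the cause was not tested.

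Dim signal limits Kcnj10, which has no level here, and Sox9, which rests on 1 of 2 probes. Glul, Rlbp1, Apoe and Dkk3 have 1 spot each. Dye and label cannot be told apart in any of these fits.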
